A study of Mus musculus with 12 samples.

Results

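Genomic imprinting marks a gene according to the parent it came from, so that only the maternal or only the paternal copy is transcribed in many tissues. Imprinted genes lie in clusters, each governed by a differentially methylated control region, and many of them regulate fetal growth, metabolism and the division of stem cells. Several are known to be expressed in long-term haematopoietic stem cells (HSCs), which renew the blood for life, and to be turned down as these cells differentiate. The 9 imprinted genes described here lie outside the Dlk1-Meg3 cluster: Peg3, Ndn, Igf2, Grb10, Plagl1, Mest, Sgce, Nnat and Gnas. They are 9 of the 18193 genes on the array, and they hold 30 of its 34945 probe sets that are annotated to exactly 1 gene. Of several probe sets, the one with the highest log2 signal averaged over all 12 arrays stands for the gene, and the others are given beside it, so the probe set was selected on its level and not on a comparison. The genes were chosen by name with results of these arrays already known, so their values in the comparison of the sorted populations are a description, and the p-values printed with them carry the selection.

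Total RNA of sorted bone marrow HSCs was measured on 12 Affymetrix arrays, 3 biological replicates in each of 4 groups. Nras GFPhigh cells are the quiescent and Nras GFP- cells the cycling HSCs, as the labels call them, of NrasG12D/+ mice, which carry an activating change in a copy of the Nras GTPase gene. Wild-type GFPhigh and wild-type GFP- cells are the same populations of mice without that change. All mice, controls included, drank doxycycline for 6 weeks and were followed for 12 weeks after its removal, the time over which dividing cells dilute a GFP label. The reporter, the agent or driver that switched on the Nras allele, the age of the mice, the sort gate and the pooling of animals are not given in the sources used here. Whether a replicate is 1 mouse is not given either, and the p-values measure the spread between these samples. Signals are in the arrays' linear intensity units, and an array's median signal lay between 44 and 129.6.

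The arrays were not of even quality. Limma's array weight was 0.403 and 0.503 in Nras GFPhigh replicates 1 and 2, 0.308 in Nras GFP- replicate 1 and 0.522 in wild-type GFPhigh replicate 2, against 0.903 to 2.46 in the other 8. These 4 are called the uneven arrays. Without them replicate 3 alone is left of Nras GFPhigh cells, so values given without them are effect sizes only. Gapdh read at its 3′ end over its 5′ end is a ratio that RNA degradation raises. It was 7.28 and 5.7 in Nras GFPhigh replicates 1 and 3 and 2.57 to 4.48 in the other 10. Nras GFPhigh replicate 2 was among the latter, at 2.83. The ratio was thus raised on some and not all arrays of that group, and its part in the results of the group was not tested. In all 4 groups replicate 3 stood apart from the other two by transcripts of the sex chromosomes: Xist read 91.8 to 205.1 in replicate 3 and 5773 to 11481 in the others, and the Y-linked Eif2s3y 3876.6 to 4544.9 in replicate 3. Eif2s3y also read 674.7 in Nras GFPhigh replicate 2 and 265.4 in wild-type GFPhigh replicate 1, both high in Xist, and at most 75.2 in the other 6. Of 12 HSC-related genes found on the array, 10 were above the array median on all 12 arrays, among them Kit, the stem cell factor receptor, Procr, Mecom, Hlf and Hoxa9. Cd48, a marker used to exclude HSCs, was above it on 3, at 512.4 in Nras GFPhigh replicate 2, 447.8 in Nras GFP- replicate 3 and 390.9 in wild-type GFP- replicate 1. Cd34, a marker low on the most dormant mouse HSCs, differed by -2.27 ± 0.63 in GFPhigh over GFP- cells (log2, SE, unadjusted p 0.00332 in limma).

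By the gene bounds of the annotation, Peg3 and its neighbour Usp29 start 96 bases apart and run in opposite directions. The stretch between these bounds is shown because the neighbours share it and their signals are compared in these cells. It is followed by the 250 bases before the start of Ndn, whose chosen probe set was higher in the GFPhigh array in all same-numbered comparisons. Both come from RefSeq on GRCm38.p6, are written 5′ to 3′ in the direction of the member gene, and carry their CpG dinucleotides, the letters that DNA methylation acts on, in capitals.
Peg3-Usp29, chr7:6730463-6730558, minus strand: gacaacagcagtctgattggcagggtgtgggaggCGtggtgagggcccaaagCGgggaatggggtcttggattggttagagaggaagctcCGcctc
Ndn, chr7:62348027-62348276, plus strand: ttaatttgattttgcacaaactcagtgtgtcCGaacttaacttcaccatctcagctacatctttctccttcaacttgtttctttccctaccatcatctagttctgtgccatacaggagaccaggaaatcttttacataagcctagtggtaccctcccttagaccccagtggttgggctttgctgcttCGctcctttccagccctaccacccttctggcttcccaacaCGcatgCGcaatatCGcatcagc

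The 250 bases before the start hold 5 CpG at Ndn and 8 at Peg3, and the median over the 32851 mouse promoters of the RefSeq table is 6. The 96-base stretch between Peg3 and Usp29 holds 3 of the Peg3 count. The start in the promoter listing of Peg3 lies inside the gene bound used for that stretch. Part of the 250 bases at Peg3 thus lies within the gene. Promoters were listed for 8 of the 9 members, 17 in all, and their counts ran widely: 1 to 22 CpG over the 4 starts of Igf2, 40 and 8 at the starts of Grb10, 14 to 29 at those of Gnas, 7 to 14 at those of Mest, 19 at Plagl1 and 12 at Nnat. A search of both strands over 300 bases found GCATGCGC, the core letters of the NRF1 motif, at Ndn and Nnat and in 2.71% of all promoters. TGACGTCA, the cyclic AMP response element, was found at Peg3 and in 1.79% of all promoters. Motif and CpG counts are descriptions of the reference sequence, since no methylation or binding was measured here.

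**Figure D1:**
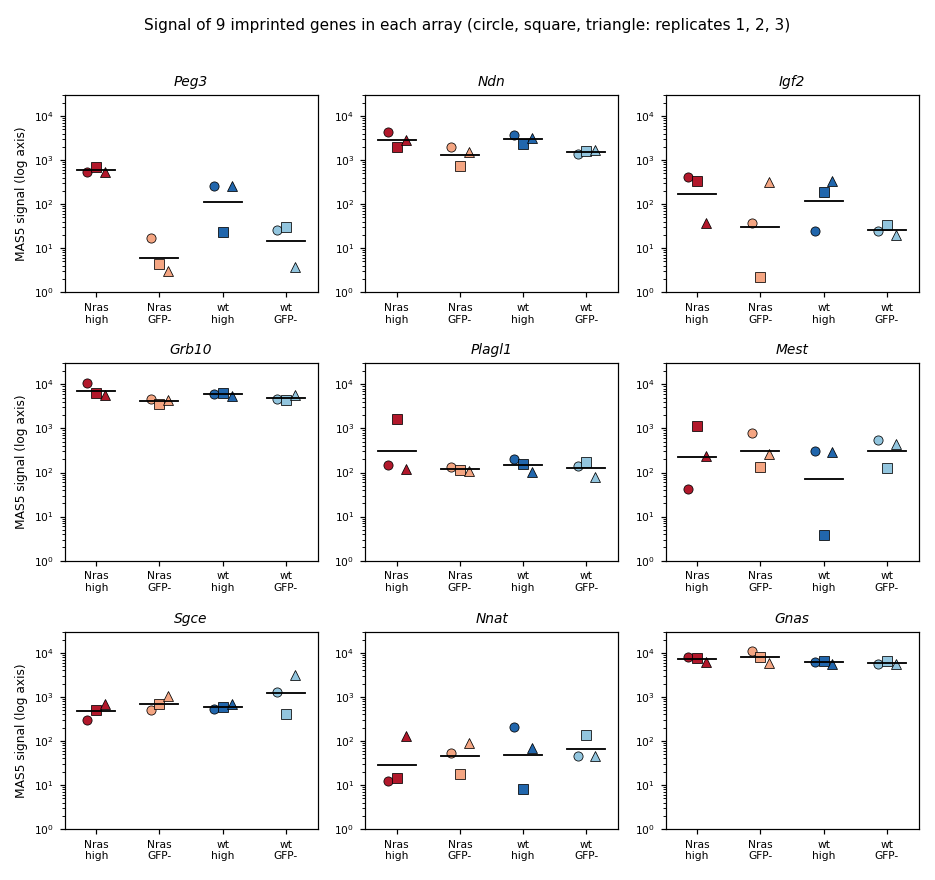
Signal of the 9 member genes on each of the 12 arrays (linear intensity units on a log axis), 1 panel per gene, with the groups from left to right Nras GFPhigh, Nras GFP-, wild-type GFPhigh and wild-type GFP-. Circles, squares and triangles are replicates 1, 2 and 3 and the line is the mean of the log2 signals. Peg3 lies between 529.4 and 693.9 on the Nras GFPhigh arrays and between 3.1 and 16.6 on the Nras GFP- arrays, while Gnas lies between 5540.2 and 11192 throughout.

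GFPhigh and GFP- HSCs were compared first, as the average over both genotypes. Peg3, Ndn and Grb10 read higher in GFPhigh cells, by 4.80, 1.06 and 0.52 on the log2 scale, and Igf2 by 2.35 with a wider error. Plagl1 depended on the probe set, Mest, Sgce and Nnat read lower within a wide spread, and Gnas was nearly level. None of the 9 passed an adjusted p of 0.05 in limma, as none of the 12083 tested genes did (0%). At an unadjusted p under 0.05 in limma, 3 of the 9 were higher (Peg3, Ndn and Grb10), against 4.36% of all tested genes, and 0 were lower, against 4.51%. Peg3 passed the filter only through GFPhigh arrays, so its place in this count is not independent of the filter. The median log2 fold change was 0.52 over the 9 members and 0.02 over all tested genes. All 9 genes passed the filter on low signal. Ndn, Grb10, Sgce and Gnas were above the array median on all 12 arrays, Plagl1 and Mest on 10, Peg3 and Igf2 on 5 and Nnat on 4.

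Peg3 is a paternally expressed zinc-finger protein known from growth control and p53-linked cell death. Its signal was 549.5, 693.9 and 529.4 in Nras GFPhigh cells, against 16.6, 4.3 and 3.1 in Nras GFP- cells. In wild-type mice it was 253.3, 22.7 and 261 in GFPhigh cells, against 25.4, 30.4 and 3.8 in GFP- cells. The 5 arrays on which Peg3 was above the array median were all GFPhigh, so it passed the filter through that population. The Nras groups lay far apart, and in wild-type mice GFPhigh replicate 2, an uneven array, lay among the GFP- samples. Averaged over genotypes the log2 fold change was 4.80 ± 0.84 (SE, 95% interval 2.99 to 6.61, unadjusted p 7.15e-05 and adjusted p 0.117 in limma), the rank 7 of the 12083 genes by p. GFPhigh exceeded GFP- in 5 of 6 same-numbered comparisons. Without the uneven arrays, which leaves only replicate 3 of Nras GFPhigh, the difference was 5.67, and over replicates 1 and 2 alone 3.82. A weighting of the arrays brought the adjusted p to 0.0315 and a pseudocount of 100 to 0.0441 in limma, with log2 fold changes of 5.49 and 1.87.

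A second Peg3 probe set, 1433924_at, read the wild-type arrays otherwise. It gave 26.9, 38.2 and 396.6 in Nras GFPhigh cells against 1.1, 13.9 and 2.2 in Nras GFP- cells, with groups that did not overlap. In wild-type mice it gave 11.9, 589.1 and 266.3 in GFPhigh cells against 12, 92.9 and 88.6 in GFP- cells. The wild-type GFPhigh array that was lowest on the first probe set was thus highest on this one. Its log2 fold change over both genotypes was 2.97 ± 1.18 (SE, unadjusted p 0.0252 in limma). The remaining 3 Peg3 probe sets stayed at or below 26 on every array.

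Ndn encodes necdin, a paternally expressed MAGE-family protein that binds E2F factors and p53 and restrains cell cycle entry, and that is known in mice to hold HSCs in quiescence. Its signal was 4310.2, 2004.4 and 2821.9 in Nras GFPhigh cells, against 2006.3, 736.5 and 1490.2 in Nras GFP- cells. It was 3709.4, 2328.9 and 3217.9 in wild-type GFPhigh cells, against 1359.8, 1600 and 1701.3 in wild-type GFP- cells. The wild-type groups did not overlap, and the Nras groups overlapped by a pair of close values, 2004.4 and 2006.3. Ndn averaged 3090 ± 700 in wild-type GFPhigh and 1550 ± 175 in wild-type GFP- cells (SD, 3 samples each). On this probe set, 1437853_x_at, GFPhigh was higher in 6 of 6 same-numbered comparisons, by 0.54 to 1.45 on the log2 scale. No other member showed this on the probe set that stands for it, though Igf2 and Plagl1 did on 1448152_at and 1426208_x_at. The share of all tested genes that did so was not counted. For Ndn the log2 fold change was 1.06 ± 0.31 (SE, 95% interval 0.39 to 1.74, unadjusted p 0.00483 and adjusted p 0.416 in limma). It was 1.29 without the uneven arrays and 1.13 over replicates 1 and 2. The 5 tested probe sets of Ndn all had positive log2 fold changes, from 1.06 to 3.40. The last was on the dim probe set 1415923_at. In wild-type replicate 2, however, GFPhigh read lower on 1435383_x_at, 1322.4 against 1786.3, and on 1435382_at, 1171.8 against 1552.9. The wild-type groups overlapped on these and also on 1415923_at. The suffix of 1437853_x_at marks probes that can match several transcripts. Without that suffix, 1435382_at differed by 1.07 ± 0.53 (log2, SE, unadjusted p 0.065 in limma).

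Grb10 is an adaptor that binds the activated insulin and IGF1 receptors and dampens their signal, and it is expressed from the maternal copy in most mouse tissues. It read 10901.8, 6213.2 and 5663.2 in Nras GFPhigh cells, against 4776.1, 3664.8 and 4393 in Nras GFP- cells, with no overlap. In wild-type mice it read 5931.1, 6482 and 5466.9 in GFPhigh cells, against 4617.6, 4537 and 5720.8 in GFP- cells, where replicate 3 was turned the other way. The log2 fold change was 0.52 ± 0.17 (SE, 95% interval 0.15 to 0.89, unadjusted p 0.00898 and adjusted p 0.454 in limma), and 0.35 without the uneven arrays. Of the other Grb10 probe sets, 1425457_a_at differed by -0.51 ± 0.62 and 1430164_a_at by 1.07 ± 0.81 (log2, SE), so the probe sets did not share a direction.

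Igf2, the paternally expressed fetal growth factor whose receptor signal Grb10 dampens, was low on most arrays. It read 402.6, 328.2 and 38 in Nras GFPhigh cells, against 38.2, 2.2 and 322.1 in Nras GFP- cells. It read 25.1, 186.4 and 329.8 in wild-type GFPhigh cells, against 24.7, 33.5 and 20 in wild-type GFP- cells. Replicates 1 and 2 of Nras and replicates 2 and 3 of wild-type read higher in GFPhigh cells, Nras replicate 3 read lower, and both genotypes overlapped. The log2 fold change was 2.35 ± 1.14 (SE, 95% interval -0.12 to 4.81, unadjusted p 0.0607 and adjusted p 0.589 in limma), and it was 1.17 without the uneven arrays and 1.40 without Nras GFP- replicate 2. A second probe set, 1448152_at, singled out after its values were seen, gave 526.7, 90.7 and 38.8 in Nras GFPhigh against 25.1, 38.7 and 8.2 in Nras GFP- cells. It gave 835.4, 62.8 and 51.4 in wild-type GFPhigh against 7.5, 7.2 and 4.9 in wild-type GFP- cells. It passed the filter through 3 arrays above the median, all of them GFPhigh, and its lowest Nras GFPhigh value, 38.8, lay next to its highest Nras GFP- value, 38.7.

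Plagl1, also called Zac1, is a paternally expressed zinc-finger transcription factor that can arrest the cell cycle and that regulates other imprinted genes in mice. Its probe set of highest mean, 1438588_at, read 147.6, 1618.4 and 118.6 in Nras GFPhigh cells, against 135, 116.2 and 110.2 in Nras GFP- cells. It read 205.4, 153.4 and 104.2 in wild-type GFPhigh cells, against 140.1, 172.5 and 80.9 in wild-type GFP- cells. All but Nras GFPhigh replicate 2 lay within a narrow band, and the log2 fold change of 0.80 ± 0.67 (SE, adjusted p 0.751 in limma) was 0.20 without that array. Another probe set, 1426208_x_at, also singled out after its values were seen, read 1595.5, 1481.6 and 80.8 in Nras GFPhigh cells against 6.3, 237.9 and 56.3 in Nras GFP- cells. It read 795.8, 1142.1 and 381.4 in wild-type GFPhigh cells against 2, 11 and 12.1 in wild-type GFP- cells, the last all below their arrays' medians of 101, 80.1 and 95.4, so that the size of a fold is not set by these values. The suffix of this probe set marks probes that can match several transcripts. The third Plagl1 probe set, 1450533_a_at, differed by 2.74 ± 1.27 (log2, SE).

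**Figure D2:**
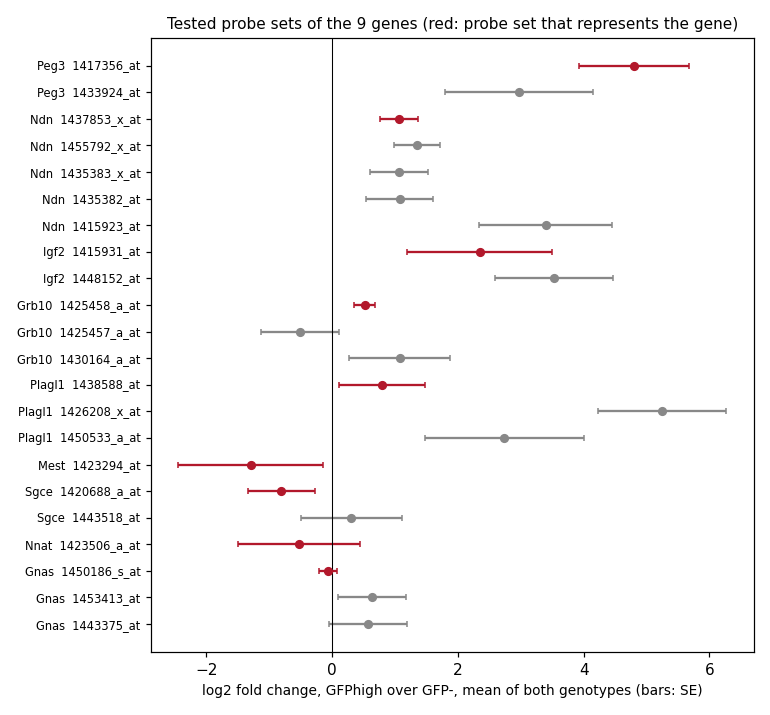
Log2 fold change of GFPhigh over GFP-, averaged over both genotypes, for each of the 22 tested member probe sets, with its standard error from limma. Red points are the probe set that stands for the gene in the counts and grey points the others. All Ndn probe sets lie above 0, while the points of Plagl1 run from 0.80 to 5.24 and those of Grb10 lie on both sides of 0.

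The other 4 members gave no separation of the sorted populations on the probe sets that stand for them. Mest, a paternally expressed protein of the alpha/beta hydrolase fold, ranged from 42.5 to 1124.2 in Nras GFPhigh and from 133.2 to 807.1 in Nras GFP- cells, and from 3.8 to 314.4 in wild-type GFPhigh and 124.6 to 544.4 in wild-type GFP- cells. Its log2 fold change of -1.30 ± 1.15 (SE) became 0.14 without the uneven arrays and -0.25 without wild-type GFPhigh replicate 2 alone. Sgce, the paternally expressed epsilon-sarcoglycan, read 293.9, 506.8 and 692.3 in Nras GFPhigh against 491.2, 684.9 and 1026.7 in Nras GFP- cells. It read 517.7, 579.9 and 675 in wild-type GFPhigh against 1306.7, 412.7 and 3185.9 in wild-type GFP- cells. GFPhigh was lower in 5 of the 6 same-numbered comparisons (log2 fold change -0.80 ± 0.52, SE, adjusted p 0.692 in limma). A second probe set, 1443518_at, differed by 0.31 ± 0.81, an average of opposite signs. It differed by 2.54 ± 1.14 in wild-type mice, where the groups did not overlap, and by -1.92 ± 1.14 in Nras mice. The Nras minus wild-type difference of these was -4.46 ± 1.62 (SE, unadjusted p 0.0161 and adjusted p 0.977 in limma). On the first probe set the value of Sgce was -0.45 without wild-type GFP- replicate 3. Nnat, a paternally expressed membrane proteolipid, stayed between 7.9 and 210.4 on all arrays, and its -0.52 ± 0.93 became 1.29 without the uneven arrays.

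Gnas encodes the stimulatory G protein alpha subunit from a locus with maternal, paternal and biallelic transcripts, which the probe set 1450186_s_at may not tell apart. It read 7927.4, 7610 and 6325.8 in Nras GFPhigh against 11192, 8023.5 and 6016.5 in Nras GFP- cells. It read 6193.3, 6431.8 and 5623.8 in wild-type GFPhigh against 5540.2, 6644 and 5677.6 in wild-type GFP- cells. The populations overlapped in both genotypes and the log2 fold change was -0.07 ± 0.15 (SE), with a 95% interval of -0.38 to 0.25 in limma.

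Within wild-type mice the log2 fold change of GFPhigh over GFP- was 3.0 ± 1.19 for Peg3 and 0.97 ± 0.44 for Ndn (SE, unadjusted p 0.0252 and 0.0475 in limma). It was 2.18 ± 1.61 for Igf2 and 0.27 ± 0.24 for Grb10. At an unadjusted p under 0.05, 2 of the 9 members were higher, against 1.05% of all tested genes, and every adjusted p was 1 in limma. Peg3 is in this count and passed the filter only through GFPhigh arrays. On the probe sets that stand for the genes, the wild-type groups did not overlap in 1 member, Ndn. GFPhigh samples all lay higher in 5.3% of all tested genes. The wild-type value of Peg3 was 4.17 without the uneven arrays, 1.45 over replicates 1 and 2 and 1.07 with a pseudocount of 100, and that of Igf2 was 1.42 without GFPhigh replicate 3 and 3.28 without GFPhigh replicate 1.

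Within Nras mice the values were 6.60 ± 1.19 for Peg3, 1.16 ± 0.44 for Ndn, 2.51 ± 1.61 for Igf2 and 0.77 ± 0.24 for Grb10 (log2 fold change, SE). Peg3, Ndn and Grb10 had an unadjusted p of 9.32e-05, 0.0216 and 0.00677 and an adjusted p of 0.105, 0.351 and 0.265 in limma. These were 3 of the 9 members, against 6.2% of all tested genes that were higher at an unadjusted p under 0.05. The groups did not overlap in Peg3 and Grb10, on the probe sets that stand for them, against 6.7% of all tested genes in that direction. Peg3 is in both counts and passed the filter only through GFPhigh arrays. Without Nras GFPhigh replicate 3 the adjusted p of Peg3 was 0.0425 in limma, at 6.67, and 161 genes then passed in place of 0. Grb10 was 0.48 without Nras GFPhigh replicate 1, and Ndn 0.75 without Nras GFP- replicate 2. Igf2 was 0.63 without Nras GFP- replicate 2, 4.22 without Nras GFP- replicate 3 and 0.51 without the uneven arrays, and Peg3 was 2.67 with a pseudocount of 100. No member separated the populations in both genotypes on the probe set that stands for it, as 0.571% of tested genes did with GFPhigh higher. The further Igf2 probe set 1448152_at did, in Nras mice by the close values 38.8 and 38.7.

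No member passed a test of the difference between genotypes in this comparison (0% of tested genes did). For Peg3 the Nras minus wild-type difference of the log2 fold changes was 3.60 ± 1.68 (SE, 95% interval -0.02 to 7.22, unadjusted p 0.0513 and adjusted p 0.956 in limma). For Grb10 it was 0.50 ± 0.34 (SE, adjusted p 0.956 in limma), and 0.21 without Nras GFPhigh replicate 1 and 0.29 without the uneven arrays. At an unadjusted p under 0.05 the difference was met by 0 of the 9 members, on the probe sets that stand for them, and by 4.68% of all tested genes. That count of 0 depended on the setting, since the unadjusted p of Peg3 in limma was 0.0197 with a pseudocount of 100, 0.048 over replicates 1 and 2, and from 0.0172 to 0.136 when single arrays were left out. A difference between the genotypes was not resolved for Peg3 or Grb10 with 3 arrays a group.

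**Figure D3:**
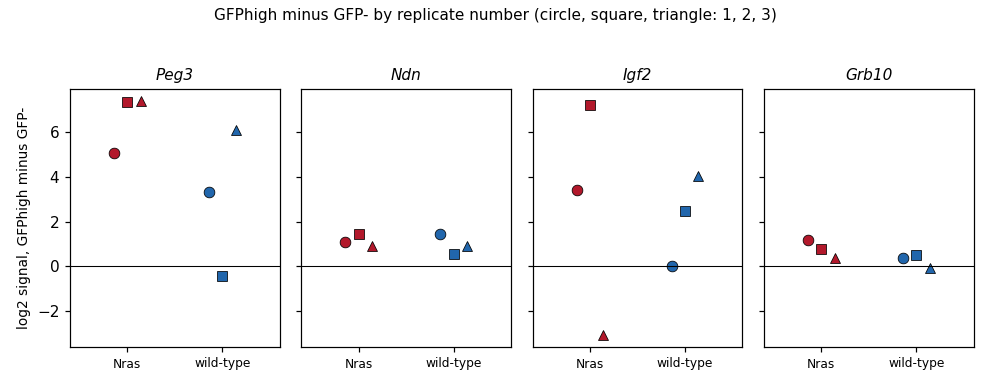
Log2 difference of GFPhigh minus GFP- between samples of the same genotype and replicate number for Peg3, Ndn, Igf2 and Grb10, with Nras left and wild-type right. Circles, squares and triangles are replicates 1, 2 and 3. Samples of the same number were not treated as pairs in the main model. Over the tested genes, deviations from the group mean correlated at -0.044 to 0.152 between same-numbered samples, pairs across genotypes included. By these deviations, 11 of 12 samples correlated best with their own number among samples of other groups. Ndn lies above 0 in 6 of 6 and the other 3 genes in 5 of 6.

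Nras and wild-type cells were compared next within each population. Gnas read higher in Nras cells, and Peg3 read higher in Nras than in wild-type GFPhigh cells on its brighter probe set and lower on the other, while no member passed the adjusted threshold in limma. Averaged over both populations 1 gene of the whole array passed it (0.00828%), and it was not a member. The log2 fold change of Gnas, from the signals above, was 0.36 ± 0.15 (SE, 95% interval 0.04 to 0.67, unadjusted p 0.0288 and adjusted p 0.609 in limma). Nras was higher in 6 of 6 same-numbered comparisons, a pattern whose share of all tested genes was not counted. The genotypes overlapped in both populations. The lowest Nras and highest wild-type values were 6325.8 and 6431.8 in GFPhigh cells and 6016.5 and 6644 in GFP- cells. Without the uneven arrays the log2 difference was 0.16. In GFP- cells alone Gnas differed by 0.46 ± 0.21 (log2, SE, unadjusted p 0.0443 in limma), and by 0.23 without Nras GFP- replicate 1, the highest Gnas value. Of the probe sets that stand for the 9 members, only that of Gnas was higher at an unadjusted p under 0.05 in either comparison. The shares of tested genes were 2.66% for the average and 0.968% for GFP- cells. The further Sgce probe set 1443518_at differed by 3.17 ± 1.14 in GFP- cells (log2, SE, unadjusted p 0.0155 in limma). The other tested Gnas probe sets, 1453413_at and 1443375_at, ranged from 336.4 to 2400 and from 150.3 to 3869.9, and their genotypes overlapped.

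In GFPhigh cells all 3 Nras values of Peg3 lay above all 3 wild-type values, as 5.12% of tested genes did. Peg3 averaged 591 ± 89.7 in Nras GFPhigh and 179 ± 135 in wild-type GFPhigh cells (SD, 3 samples each). The log2 fold change was 2.36 ± 1.19 (SE, 95% interval -0.21 to 4.92, unadjusted p 0.0683 and adjusted p 0.636 in limma), and it was 1.19 without wild-type GFPhigh replicate 2 and 1.04 without the uneven arrays. The second Peg3 probe set, 1433924_at, differed by -0.73 ± 1.66 in the same comparison (log2, SE). In GFP- cells that probe set was lower in Nras mice, by -3.84 ± 1.66 (log2, SE, unadjusted p 0.0377 and adjusted p 0.98 in limma). The first probe set differed there by -1.24 ± 1.19 (log2, SE).

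Neighbours in the same clusters were read beside the members. Usp29, a ubiquitin-specific protease transcribed away from Peg3 across the stretch printed above, read 53.9, 362.9 and 12.7 in Nras GFPhigh against 47.3, 66.9 and 46.2 in Nras GFP- cells. It read 36.2, 90.1 and 42.1 in wild-type GFPhigh against 46.6, 91.2 and 42.3 in wild-type GFP- cells. Its log2 fold change over both genotypes was 0.06 ± 0.78 (SE), beside 4.80 for Peg3. Peg10, a retrotransposon-derived gene 101 bases from Sgce, read 533.2, 601.7 and 313.1 in Nras GFPhigh against 20.9, 31.7 and 120.2 in Nras GFP- cells, with no overlap. In wild-type mice it read 77.3, 4.3 and 358.3 in GFPhigh against 203.9, 89.5 and 58 in GFP- cells, which overlapped. Over both genotypes Peg10 differed by 1.19 ± 0.95 (log2, SE), opposite in sign to Sgce.

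Blcap, which contains Nnat in an intron, and Copg2, a coatomer subunit that overlaps Mest, varied between arrays without separating the populations. Phactr2, a phosphatase and actin regulator near Plagl1, differed by 0.72 (log2, unadjusted p 0.029 in limma). Ube3a, the ubiquitin ligase of the Ndn cluster, was above the array median on all 12 arrays, between 3630.5 and 7342.3, while Snrpn, Magel2 and Mkrn3 of that cluster stayed too low to be tested. Zim1 of the Peg3 cluster, Ins2, next to Igf2, and Ddc and Cobl, near Grb10 with other genes between, were also too low. Of 22 listed neighbours 17 were on the array and 10 were tested, and 1 was higher and 0 lower at an unadjusted p under 0.05, against 4.36% and 4.51% of all tested genes.

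**Figure D4:**
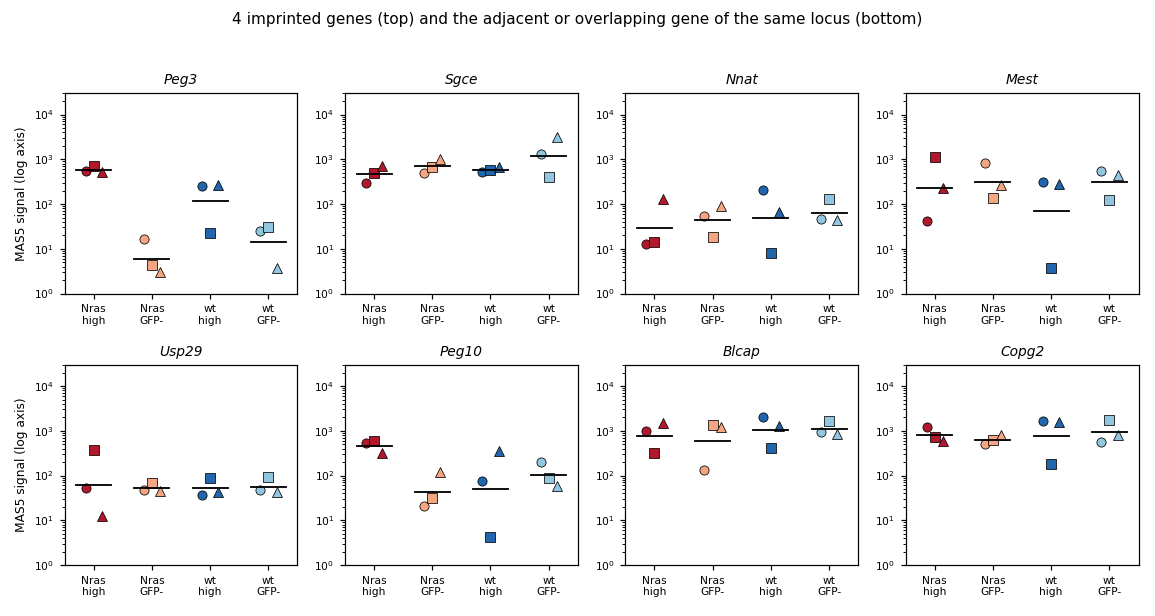
Signal of Peg3, Sgce, Nnat and Mest (top) and of Usp29, Peg10, Blcap and Copg2, the gene next to or overlapping each (bottom), on each array (linear intensity units on a log axis), with the groups from left to right Nras GFPhigh, Nras GFP-, wild-type GFPhigh and wild-type GFP-. Circles, squares and triangles are replicates 1, 2 and 3, and the line is the mean of the log2 signals. Peg3 separates the sorted populations of Nras mice while Usp29, 96 bases away, does not, and Peg10 reads 313.1 to 601.7 in Nras GFPhigh against 20.9 to 120.2 in Nras GFP- cells.

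A wider list of 57 imprinted genes had 49 on the array and 34 tested. In GFPhigh over GFP- cells 20 differed upward and 14 downward, with a median log2 fold change of 0.10 against 0.02 over all tested genes. None passed the adjusted threshold, and 1 was higher at an unadjusted p under 0.05, against 4.36% of all tested genes: Cd81, a tetraspanin (0.34 ± 0.14, SE, adjusted p 0.55 in limma). Next by p were H13, a signal peptide peptidase, at -1.75 ± 0.81, Impact, a translational regulator, at 0.97 ± 0.48, and Klf14, a Kruppel-like factor, at 1.0 ± 0.65. Between genotypes 1 was lower at an unadjusted p under 0.05, against 5.12% of all tested genes: Osbpl5, an oxysterol-binding protein (-3.02 ± 1.34), followed by Commd1 (-1.11 ± 0.57) and the non-coding RNA Airn (1.32 ± 0.73), with a list median of -0.12 against -0.15 over all tested genes. Without the uneven arrays H13 was 0.23, Klf14 0.42, Commd1 -0.19 and Airn 0.71.

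Igf2 and Grb10 act on IGF and insulin signalling, and 18 of 26 genes listed for that pathway were tested. Of these 13 differed upward and 5 downward in GFPhigh over GFP- cells, with a median of 0.45 against 0.02 (log2), and 0 passed the adjusted threshold. Pik3r1, the regulatory subunit of PI3 kinase, read 13203.6, 12119.4 and 8399.4 in Nras GFPhigh cells against 5471.9, 6575.7 and 5947.7 in Nras GFP- cells. It read 8540, 9064.7 and 7417.9 in wild-type GFPhigh cells against 5671.2, 7261.8 and 7173.1 in wild-type GFP- cells. Neither genotype overlapped, and the log2 fold change was 0.60 ± 0.13 (SE, unadjusted p 0.000414 and adjusted p 0.219 in limma). The IGF-binding proteins Igfbp6, Igfbp2 and Igfbp4 differed by 2.35 ± 1.16, 1.19 ± 0.63 and -0.25 ± 0.15. Without the uneven arrays Pik3r1 was 0.34 and Igfbp6 0.43. The receptors were present: Igf1r, which carries the IGF signal, read 2060.8 to 7610.9, and Igf2r, which clears IGF2 and is itself imprinted, 141.7 to 2110.5. Between genotypes Foxo1 differed by 1.16 ± 0.54, Pik3ca by 0.62 ± 0.29 and Akt2 by -0.61 ± 0.37.

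Among factors that maintain imprints, 18 of 22 listed were tested, 6 differing upward and 12 downward in GFPhigh over GFP- cells (median -0.41 against 0.02, log2). At an unadjusted p under 0.05 in limma 4 were lower, against 4.51% of all tested genes, and 0 higher, against 4.36%. These were Uhrf1, which brings DNMT1 to newly copied DNA (-2.65 ± 0.78, adjusted p 0.416 in limma), Dnmt3b, a de novo methyltransferase (-1.25 ± 0.43), Mbd3 (-1.69 ± 0.61) and Trim28, the co-repressor of imprint-binding zinc-finger proteins (-0.93 ± 0.37). Without the uneven arrays the values were -2.0, -0.92, -1.15 and -0.33. Between genotypes Dnmt1 differed by 0.32 ± 0.14, Mbd3 by -1.0 ± 0.61 and Arid4a by 0.53 ± 0.40.

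Summed stromal, granulocyte, endothelial and monocyte markers read higher in Nras GFPhigh than in Nras GFP- cells, and those of other cell types overlapped or read lower. The summed signal of 15 stromal genes was 2092 to 4771 in Nras GFPhigh against 644 to 921 in Nras GFP- cells, and 1102 to 1339 in wild-type GFPhigh against 1343 to 1774 in wild-type GFP- cells. Of its 9 tested genes 7 differed upward in GFPhigh over GFP- cells of Nras mice and 3 of 9 in wild-type mice. Cxcl12, a defining stromal chemokine, read 1411.6, 601.8 and 700.9 in Nras GFPhigh against 24.4, 27.6 and 3.9 in Nras GFP- cells, and no more than 239.4 in wild-type cells. Lepr, another, was above the median on 0 arrays.

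Granulocyte markers summed to 44642.6, 59185.3 and 6037.3 in Nras GFPhigh against 4571.6, 4619.5 and 5590.6 in Nras GFP- cells, and ranged from 1032 to 13190 in wild-type GFPhigh and 2565 to 13391 in wild-type GFP- cells. The endothelial sum was 7402 to 9044 in Nras GFPhigh against 3927 to 5631 in Nras GFP- cells, and 4919 to 7521 in wild-type GFPhigh against 5161 to 6096 in wild-type GFP- cells. The monocyte sum was 4857 to 11138 in Nras GFPhigh against 2974 to 4367 in Nras GFP- cells, and 3652 to 5000 in wild-type GFPhigh against 3751 to 4917 in wild-type GFP- cells. Most of that sum was a single gene, Lyz2. It read 9049.8, 9000.6 and 3343.6 in Nras GFPhigh against 2797.2, 3609.4 and 2875.4 in Nras GFP- cells. Only 3 of the 9 monocyte genes on the array were tested. Megakaryocyte genes summed the other way in Nras mice, 899 to 2119 in Nras GFPhigh against 2197 to 4767 in Nras GFP- cells, and were 2106 to 3447 in wild-type GFPhigh against 1233 to 1843 in wild-type GFP- cells. Gene by gene, all 6 tested were lower in GFPhigh cells of Nras mice and 4 of 6 in wild-type mice. The wild-type median log2 fold change was -0.49. The 2 higher ones were Vwf and Tubb1, and Tubb1 read 1697.3 in wild-type GFPhigh replicate 2, an uneven array. Sums of B-cell, T- and NK-cell and erythroid genes overlapped between the sorted populations of both genotypes. The 4 tested B-cell genes all differed upward in GFPhigh over GFP- cells, with a median log2 fold change of 1.11 in Nras and 1.90 in wild-type mice. The part of these cells in the member values was not tested, and in sorted bulk RNA fewer cells of a type and less RNA per cell cannot be told apart.

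The members did not vary as a block. Of their 36 pairs 21 had a positive Pearson correlation of log2 signal over the 12 arrays, from -0.574 to 0.802 with a median of 0.048. The arrays share group, batch and scaling, so the correlations are a description. Those over 0.5 were Ndn with Grb10 at 0.802, Peg3 with Ndn at 0.757, Peg3 with Grb10 at 0.631, Ndn with Igf2 at 0.605, Igf2 with Grb10 at 0.597 and Peg3 with Plagl1 at 0.504. The lowest was Peg3 with Sgce at -0.574.

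Over all tested genes, the profiles most like each member on the 12 arrays were Trp53inp2 and Mllt3 for Peg3 (r of 0.883 and 0.87), Aktip and Mmrn1 for Ndn (0.89 and 0.888) and 2410006H16Rik and Ralgapa2 for Grb10 (0.885 and 0.878). For Igf2 they were Rbis and Gm5124 (0.826 and 0.814), for Plagl1 Atcayos and St6galnac1 (0.966 and 0.958), and for Mest Hand1 and Wdr13 (0.917 and 0.916). For Sgce they were P2ry2 and Scml2 (0.874 and 0.845), for Nnat Tmem234 and 4930550C14Rik (0.918 and 0.913), and for Gnas Zdhhc24 and Khdrbs1 (0.935 and 0.927). The signal of Plagl1 was 1618.4 on Nras GFPhigh replicate 2 and at most 205.4 on the other 11 arrays.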

How the data were processed

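The deposited values are intensity, as MAS5 signal on a linear scale per the submitters' processing notes, for 45101 probe sets on 12 arrays. The MAS5 version is not given in these sources. The mean of every array, trimmed by 2% at both ends, was 500, and replicates were not pooled. No detection calls were used.

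Signals were taken to log2 with 3 values at 0 set to 0.1. A gene was its single-gene probe set of highest mean log2 signal, and 12083 genes whose probe set was above the array median in at least 3 arrays were tested. Probe sets with several genes (932) or none (9160) and 64 controls were left out. One limma model of 4 group means (limma 3.58.1, R 4.3.3, intensity trend) gave all comparisons, two-sided, with Benjamini-Hochberg adjustment over all tested genes. SE and 95% intervals are limma's. The number of arrays limits the precision.

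Members, lists and markers were chosen with earlier results of these data known. All members are named, with list genes of smallest p (up to 4 between populations, 3 between genotypes) and the 2 most correlated genes. Alternatives changed weighting, scaling, filter, pseudocount, probe-set choice, replicates, samples, threshold and the intensity trend. Steps were tested on simulated data. Deviations from the group mean, over the tested genes, correlated at -0.044 to 0.152 over 18 same-numbered pairs, 3 of them over 0.1. By these deviations, 11 of 12 samples correlated best with their own number among samples of other groups. Numbers were not used to pair samples in the main model, and a fit with the number as a block was an alternative. Python was 3.11.15, with pandas 2.3.3 and matplotlib 3.10.9.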

Additional observations from a re-analysis of the deposited data

How the results depend on the processing

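For the 22 member results, 524 of 539 alternative values kept their direction and side of the threshold, and for 21 list genes 505 of 513. The number of members passing GFPhigh over GFP-, 0 as reported, was 1 (Peg3) with array weights and with a pseudocount of 100, and in Nras mice it ranged from 0 to 1 when samples were left out in turn. Peg3 ranged from 1.87 to 5.67 with an adjusted p of 0.0315 to 0.454 in limma, and was not testable with the filter at the 75th percentile or with probe-set means. Directions that turned were as follows. With array weights Nnat read 0.15 and Gnas 0.0071. With median centring the Grb10 difference between genotypes was -0.14. With the mean over probe sets that difference was -0.33, Gnas between genotypes in GFP- cells -0.23, Impact -0.21, Airn -0.57, Foxo1 -0.12, Pik3ca -0.45 and Arid4a -0.0106. Without shared probe sets Sgce read 0.31, Gnas 0.64 between populations and -0.34 between genotypes in GFP- cells, and Foxo1 -0.40. Without the 4 uneven arrays Mest read 0.14, Nnat 1.29 and H13 0.23. With samples left out in turn, Nnat ranged from -1.07 to 0.13 and Gnas between populations from -0.18 to 0.048. The cause was not tested. Signals near background limit Peg3, Igf2, Nnat and the further Plagl1 probe sets. With the replicate block the adjusted p in limma was 0.177 for Peg3 and 0.346 for Ndn and no member passed. As a hint from the data, 11 of 12 samples correlated best with their own number by deviations from the group mean.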
